A study of Mus musculus with 42 samples.

Results

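The Notch pathway was followed through 10 genes, 3 receptors (Notch1, Notch2 and Notch3), 3 ligands (Dll1, Dll3 and Jag1), the glycosyltransferase Lfng and 3 target genes (Hes1, Hes5 and Hey1), out of 20957 genes that the arrays could name. Their probes were found through the RefSeq accession of each probe, which gave 13 probes, and each gene is represented by the probe with the highest mean over all 42 arrays. All 10 genes were well above background in every array of at least 1 group. The rule that picks the probes uses no comparison between groups.

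RNA came from a mouse embryonic stem cell (mESC) line that carries GFP at the Gsc locus and RedStar at the Hhex locus, so that GSC (G) and HHEX (H) positive cells can be isolated as the culture converts to anterior definitive endoderm (ADE). The paper uses GSC to mark the primitive streak and mesendoderm, and HHEX to mark lineages of the definitive endoderm. The untreated series held ESCs, unsorted day 2 (d2) cells and 9 sorted populations, namely d3 G- and G+, d4 G- and G+, d5 G-, Glow and Ghigh, and d6 G+H- and G+H+. A second series held d6 cultures, for which the labels name no sort, that received DMSO throughout (Control), the EZH2 inhibitor EPZ6438 at 2.5 µM during differentiation (ADE_EPZ), or the inhibitor in the ESC stage only (ES_EPZ). Each of the 14 groups had 3 arrays, all from this 1 dual reporter line. The study's legends describe the G+ against G- and the EPZ6438 expression data as independent replicate experiments. A supplementary legend says the same of expression levels shown beside histone marks, without naming the populations. For the ESC, d2 and d6 sorted samples the sources used here do not say so by name. There p values measure the spread between these arrays, which may be technical.

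In the Notch pathway a ligand on one cell binds a receptor on its neighbour, gamma-secretase then releases the intracellular part of the receptor, and this enters the nucleus, where it joins the DNA-binding protein RBPJ and a Mastermind coactivator. Hes and Hey genes, which encode basic helix-loop-helix repressors, are the best known direct targets, and Fringe enzymes such as Lfng add sugars to the receptors that alter their choice of ligand. In the gastrulating mouse embryo the pathway is known for somite formation, left-right asymmetry and the node, and for vessel and neural development.

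The DNA upstream of the start was searched for the sequence that RBPJ is known to bind. Of the 10 genes, 8 had a promoter window in the RefSeq table for GRCm38.p6, with 9 windows in all, since Dll1 had a pair of starts. Hes1 and Hey1 were not among them. Each window runs from 250 bases before to 50 bases after a start. The core of the RBPJ binding sequence, TGGGAA, was searched on both strands, and 25.6% of all 32851 windows held it, with more than 1 copy in 3.79%. Only Hes5 and Lfng among the 8 genes held it, each with 2 copies in opposite orientation. They are shown with the motif in capitals, read 5′ to 3′ on the gene's strand and ending at the base before the start. The Hes5 stretch is GRCm38.p6 chr4:154960673-154960922 (+), with copies that begin 226 and 82 bases upstream, and the Lfng stretch is chr5:140607091-140607340 (+), with copies 135 and 108 bases upstream.
Hes5: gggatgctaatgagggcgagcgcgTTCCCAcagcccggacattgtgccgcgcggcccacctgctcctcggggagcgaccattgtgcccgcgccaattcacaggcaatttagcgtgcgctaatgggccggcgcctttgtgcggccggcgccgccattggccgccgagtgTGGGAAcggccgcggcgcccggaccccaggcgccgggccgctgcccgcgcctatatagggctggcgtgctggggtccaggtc
Lfng: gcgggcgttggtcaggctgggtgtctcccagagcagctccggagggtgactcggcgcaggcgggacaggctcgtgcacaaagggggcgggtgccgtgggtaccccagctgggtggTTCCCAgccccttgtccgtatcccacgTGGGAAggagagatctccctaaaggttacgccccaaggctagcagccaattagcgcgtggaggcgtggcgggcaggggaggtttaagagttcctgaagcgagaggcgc
With the longer form GTGGGAA, held by 6.4% of windows, both Hes5 copies and 1 of the Lfng copies remained. The third stretch belongs to Dll1, the 1 gene of the 10 that was called under the EZH2 inhibitor, at chr17:15376933-15377182 (-), with CG in capitals.
Dll1: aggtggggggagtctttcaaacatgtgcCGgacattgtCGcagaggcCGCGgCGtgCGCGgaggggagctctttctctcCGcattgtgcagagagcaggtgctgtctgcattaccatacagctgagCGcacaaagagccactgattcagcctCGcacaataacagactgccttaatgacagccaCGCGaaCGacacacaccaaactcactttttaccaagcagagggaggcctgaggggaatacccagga
Its full window held 15 CG pairs against a median of 7 over all windows, and 65.4% of windows held fewer, while the window of its other start held 24. All 9 windows of the Notch genes were above that median, with the most, 41, at Hes5 and Notch2. A match is a description of these letters and not a bound site.

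Values are the deposited log2 intensities, and a difference of 1 is a 2-fold change. Each ± is an SE unless an SD is stated. Levels of different genes cannot be compared, because each has its own probe. A gene counted as called in a comparison where limma's adjusted p was 0.01 or less and the log2 change, in either direction, was 1.5 or more. The GSC sort showed in the RNA, with Gsc higher in G+ than G- by 3.55 ± 0.47 (SE) at d3 and 2.41 ± 0.47 at d4, and in d5 Ghigh than d5 G- by 3.95 ± 0.47. At d6 every G+H+ array (12.52 to 12.86) lay above every G+H- array (11.68 to 12.50) for Hhex, a difference of 0.47 ± 0.40 that did not pass (adjusted p = 1.0). The slides of the untreated series and those of the EPZ6438 series did not overlap, so the series and any effect of the slide cannot be told apart, and no test sets one series against the other. Of the 34 calls of Notch genes, 30 could also be read within slides that held both groups, and all 54 such differences had the direction of the pooled value. In every call the arrays of the groups did not overlap, so this direction was fixed in advance and does not test for a slide effect. In these bulk samples, a change in RNA per cell and a change in the share of cells that express the gene cannot be told apart.

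**Figure D1:**
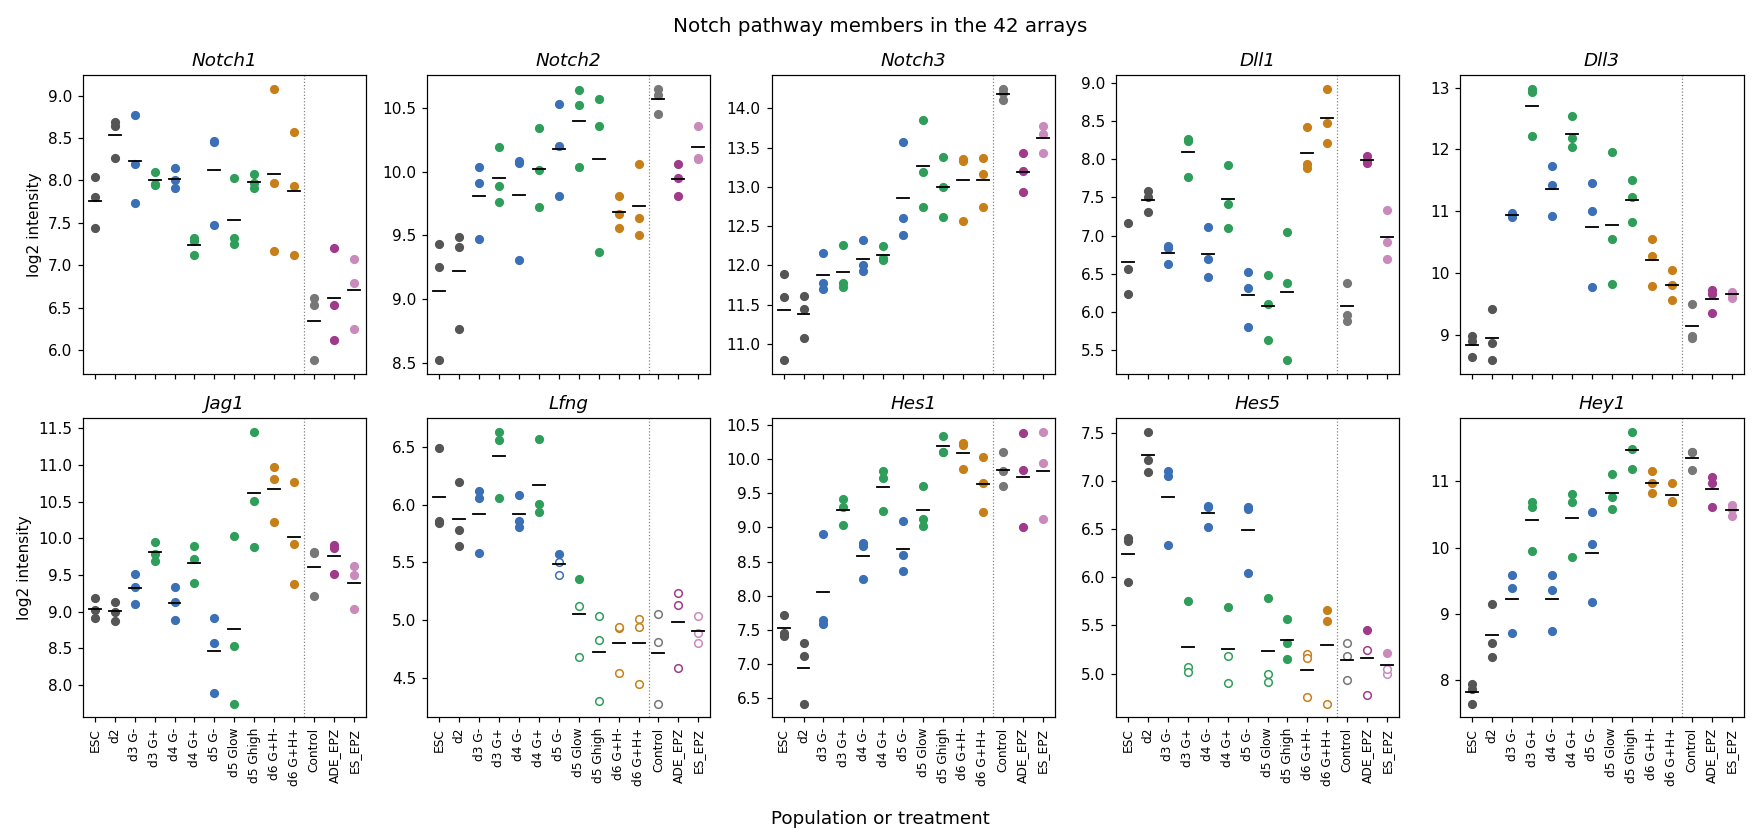
Log2 intensity (y axis) of the 10 Notch genes in each of the 42 arrays, by population or treatment (x axis). Points are arrays (open where not well above background), bars are means of 3, colours mark G- (blue), G+, Glow and Ghigh (green) and d6 populations (orange), the dotted line separates the untreated from the EPZ6438 series, and Dll3 peaks in d3 G+, Hes1 and Hey1 climb to d5 Ghigh, and Hes5 drops in the G+ populations.

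Against ESCs the genes were first called on different days. The ligand Dll3 rose from d3 in both G- and G+ cells, the targets Hes1 and Hey1 rose from d3 in G+ cells, the receptor Notch3 and the ligand Jag1 were first called at d5, and the ligand Dll1 at d6. Over all populations 6 of the 10 genes were called at least once, where 16.8% of all genes were. At d2 limma called 0 of the 10 genes (1.73% of all genes), and 4 had an unadjusted p under 0.05. The d3 G- cells had 1 call, where 2.42% of all genes were called and 1.12% as higher, and the d3 G+ cells had 3 (6.6%, and 2.89% as higher). At d4 there was 1 call in G- (3.22%, and 1.47% as higher) and 3 in G+ (7.42%, and 3.03% as higher). At d5 there were 2 calls in G- (4.32%, and 2.14% as higher), 4 in Glow (7.75%, and 3.52% as higher) and 5 in Ghigh (8.2%, and 3.63% as higher). Each d6 population had 4, where G+H- had 10.2% of all genes called and 5.11% as higher, and G+H+ 11.1% and 5.8%. All of these calls were increases. The median log2 change of the 10 genes stood at 0.82 for d3 G+, 1.31 for d5 Ghigh and 1.39 for d6 G+H-, while that of all genes lay between -0.00 and 0.03. These comparisons share the 3 ESC arrays.

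**Figure D2:**
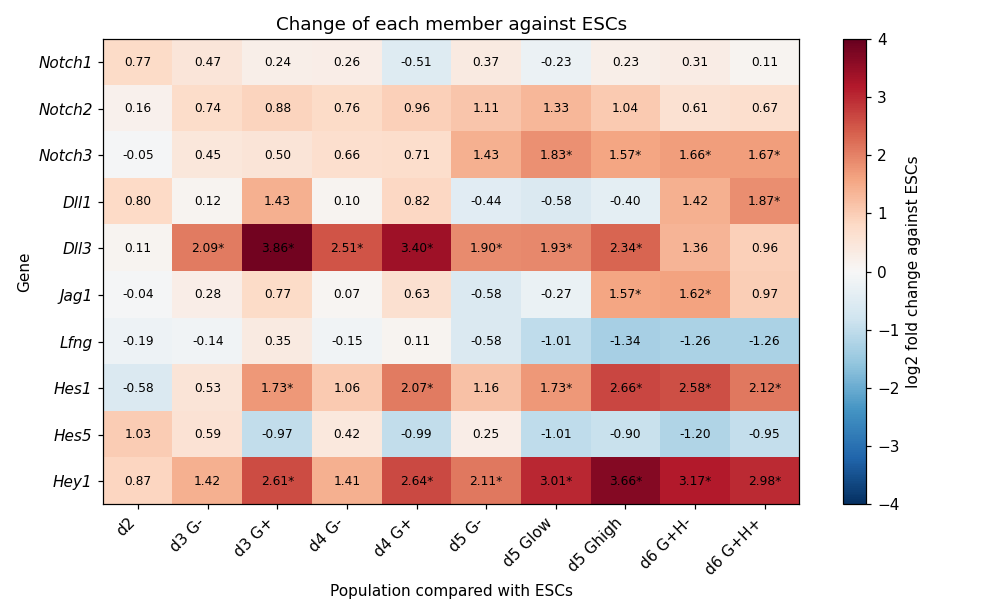
Log2 fold change of each Notch gene (rows) in each population of the untreated series (columns) against ESCs, coloured from blue (lower) to red (higher), with stars on called genes. Calls run from Dll3, Hes1 and Hey1 at d3 to Notch3, Jag1 and Dll1 at d5 and d6.

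Of the receptors, only Notch3 was called. The replicate values of Notch3 in ESCs were 11.60, 11.89 and 10.79, in d5 Glow 13.85, 13.19 and 12.74, and in d6 G+H+ 13.37, 12.75 and 13.16. Every d5 Glow and d6 array was above every ESC array. The increase was 1.83 ± 0.28 (SE) in d5 Glow (adjusted p = 6.33e-06), 1.57 ± 0.28 in d5 Ghigh (adjusted p = 6.18e-05), 1.66 ± 0.28 for d6 G+H- and 1.67 ± 0.28 for d6 G+H+, between 2.97- and 3.56-fold. In d5 G- Notch3 was higher by 1.43 ± 0.28 (adjusted p = 0.00041), just short of the fold required. ESC replicate 3 was the lowest of the ESC arrays, and without it the differences from ESCs for d5 Ghigh and both d6 populations were between 1.25 and 1.35 and not called. The d5 Ghigh value was also not called without d5 Ghigh replicate 1, at 1.38.

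Notch2 lay above ESCs in the mean of every later population, with the largest difference, 1.33 ± 0.27, in d5 Glow (adjusted p = 0.000255), where the arrays read 10.64, 10.52 and 10.04 against 9.43, 9.25 and 8.52 in ESCs. The groups did not overlap, but the fold stayed under the threshold. In d6 G+H- the difference was 0.61 ± 0.27 (adjusted p = 0.104). Notch1 had differences from ESCs between -0.51 in d4 G+ and 0.77 in d2 and an adjusted p of at least 0.283. The 3 arrays of Notch1 in d4 G+ (7.12, 7.32 and 7.29) were below all those of d4 G- (7.91 to 8.15), a difference of -0.77 ± 0.36 that did not pass (adjusted p = 0.327). In d6 G+H- its arrays spread from 7.17 to 9.08. A second probe of Notch1 and one of Notch2 were dim and gave no value at an adjusted p of 0.05 in any comparison.

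Dll3 showed the largest change of the 10 genes against ESCs, in d3 G+. This divergent ligand is known to act within the cell that makes it, and marks the primitive streak and presomitic mesoderm of the embryo. The ESC arrays read 8.91, 8.99 and 8.64, the d3 G- arrays 10.90, 10.98 and 10.94, and the d3 G+ arrays 12.22, 12.98 and 12.92. No 2 of these groups overlapped. Dll3 rose by 3.86 ± 0.36 in d3 G+ (14.5-fold, adjusted p = 3.88e-10) and by 2.09 ± 0.36 in d3 G- (4.26-fold, adjusted p = 0.000109). At d2, with 8.87, 9.42 and 8.59, it overlapped the ESC arrays.

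The means of Dll3 were lower on the later days. The d4 G+ arrays were at 12.04, 12.54 and 12.18, overlapping d3 G+, the d5 Ghigh arrays at 10.83, 11.23 and 11.51, and the d6 G+H+ arrays at 9.57, 9.81 and 10.05. The difference from ESCs was 3.4 ± 0.36 in d4 G+ and 2.34 ± 0.36 in d5 Ghigh. It was 1.36 ± 0.36 in d6 G+H- (adjusted p = 0.00402, not called) and 0.96 ± 0.36 in d6 G+H+ (adjusted p = 0.0469, not called). In order of the mean, d3 G+ (12.71 ± 0.43, SD) was followed by d4 G+ (12.25 ± 0.26), d4 G- (11.36 ± 0.41) and d5 Ghigh (11.19 ± 0.34), and of these neighbours only d4 G+ and d4 G- did not overlap. The d5 G- and d5 Glow arrays were spread widely, from 9.78 to 11.45 and from 9.82 to 11.95, and without d5 Glow replicate 3 the d5 Glow difference from ESCs was 1.34 and not called. A second probe of Dll3 gave the same calls, with 3.75 ± 0.36 in d3 G+.

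Dll1, the ligand that signals between cells of the streak and paraxial mesoderm, was above ESCs in d3 G+ and at d6 but not at d5. Its arrays read 6.57, 6.24 and 7.17 in ESCs and 7.77, 8.24 and 8.26 in d3 G+. They were at 5.37, 6.38 and 7.05 in d5 Ghigh and at 7.88, 8.42 and 7.94 in d6 G+H- and 8.21, 8.92 and 8.47 in d6 G+H+. Both the d3 G+ and the d6 arrays lay above all ESC arrays, while d5 Ghigh overlapped them. The d2 arrays, from 7.31 to 7.58, also lay above all ESC arrays, by 0.80 ± 0.30, which did not pass (adjusted p = 0.119). In d4 G+ the difference was 0.82 ± 0.30 with overlap (adjusted p = 0.0551). Dll1 was called in d6 G+H+ (1.87 ± 0.30, 3.66-fold, adjusted p = 5.68e-06), and was short of the fold in d6 G+H- (1.42 ± 0.30, adjusted p = 0.000342) and d3 G+ (1.43 ± 0.30, adjusted p = 0.000484). From d5 Ghigh to d6 G+H- it rose by 1.81 ± 0.30 (adjusted p = 0.000117), higher in 9 of 9 pairs of arrays. It was the 1 gene of the 10 called there, where 2.18% of all genes were, and the rise was not called without d5 Ghigh replicate 1 (1.36), with an offset of 50 (1.38) or in a fit of only these groups.

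Jag1, a ligand of the Serrate family with a role in vessel, heart and bile duct development, was raised late. The ESC arrays were at 9.19, 9.02 and 8.92, d5 Glow at 7.75, 8.53 and 10.03, d5 Ghigh at 9.88, 10.51 and 11.45, and d6 G+H- at 10.22, 10.97 and 10.81. The d5 Ghigh and d6 G+H- arrays were all above ESCs, whereas d5 Glow ran from below to above them. Jag1 rose by 1.57 ± 0.38 in d5 Ghigh (adjusted p = 0.00197) and by 1.62 ± 0.38 in d6 G+H- (adjusted p = 0.00111), while d6 G+H+, with 9.38, 9.92 and 10.76, gave 0.97 ± 0.38 (adjusted p = 0.057). Without d5 Ghigh replicate 3 the d5 value was 1.15 and not called, and without ESC replicate 3 it was 1.51 and not called either. Without d6 G+H- replicate 2 the d6 value was 1.47 and not called.

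Lfng was not detected in d5 Ghigh and later populations. All 3 arrays were above background in every group up to d4 G+, with 5.86, 6.49 and 5.84 in ESCs and 6.56, 6.63 and 6.06 in d3 G+. In d5 G- and in d5 Glow 1 array of 3 was above background. The differences from ESCs were -0.58 ± 0.24 in d5 G- (adjusted p = 0.129) and -1.01 ± 0.24 in d5 Glow (adjusted p = 0.00171, not called). From d5 Ghigh on no array was above background, with 4.30, 4.83 and 5.04 in d5 Ghigh. Lfng was therefore at least 2.53-fold lower in d5 Ghigh than in ESCs (adjusted p = 4.89e-05), at least 2.40-fold lower in d6 G+H- and at least 2.27-fold lower in d6 G+H+. Such a bound sets the ESC mean against, on each array, the higher of the measured value and the lowest signal among probes well above background. The measured value was the higher one on every array of d5 Ghigh and d6 G+H-, and the measured differences, between -1.34 and -1.26, were short of the fold required.

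Among the targets Hey1, known for its part in heart and vessel development, changed most. Its arrays read 7.64, 7.93 and 7.86 in ESCs, 10.62, 10.69 and 9.95 in d3 G+, and 11.75, 11.49 and 11.19 in d5 Ghigh. No array of d3 or later overlapped ESCs. Hey1 rose by 2.61 ± 0.28 in d3 G+ (6.11-fold, adjusted p = 7.73e-09), by 3.66 ± 0.28 in d5 Ghigh (12.7-fold, adjusted p = 2.8e-12) and by 2.98 ± 0.28 in d6 G+H+ (7.89-fold). Among the G- populations the differences were 1.42 ± 0.28 at d3 and 1.41 ± 0.28 at d4, short of the fold, and Hey1 rose by 2.11 ± 0.28 at d5 (adjusted p = 8.58e-07).

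Hes1, which oscillates in presomitic mesoderm and restrains differentiation in gut and nervous tissue, was called in the GSC-expressing and d6 populations. Its arrays were at 7.41, 7.45 and 7.71 in ESCs, 9.30, 9.41 and 9.04 in d3 G+ and 10.34, 10.11 and 10.11 in d5 Ghigh. The increase over ESCs was 1.73 ± 0.33 in d3 G+ (adjusted p = 0.000134), 2.07 ± 0.33 in d4 G+, 2.66 ± 0.33 in d5 Ghigh (6.33-fold, adjusted p = 7.99e-08) and 2.12 ± 0.33 in d6 G+H+ (4.34-fold). In d3 G- replicate 1, at 8.91, stood apart from the others, at 7.65 and 7.58, and the difference from ESCs was 0.53 ± 0.33 (adjusted p = 0.431). Hes1 was higher than in ESCs by 1.06 ± 0.33 in d4 G- (adjusted p = 0.0304) and by 1.16 ± 0.33 in d5 G- (adjusted p = 0.0132). Neither was called, though neither group overlapped ESCs.

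Hes5, a target known from neural progenitors, was lower in the GSC-expressing populations. The arrays read 6.38, 5.95 and 6.41 in ESCs and 7.22, 7.09 and 7.51 at d2, a difference of 1.03 ± 0.26 (adjusted p = 0.0128, not called). In the G- populations all arrays stayed above background, with 6.34, 7.10 and 7.05 at d3. In G+ they were at 5.07, 5.02 and 5.75 at d3 and at 4.90, 5.18 and 5.69 at d4, where 1 array of 3 was above background in each. In both groups this array was replicate 3, and the untreated replicate 3 arrays lay on slides apart from those of replicates 1 and 2. Against ESCs the difference was -0.97 ± 0.26 in d3 G+ (adjusted p = 0.00783) and -1.2 ± 0.26 in d6 G+H- (adjusted p = 0.000583), where no array was above background and Hes5 was at least 2.3-fold lower. None of these reached the fold for a call.

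Sorting at d3 compared cells with and without the GSC reporter on the same day. Gsc RNA was above ESCs in G- as well, by 3.27 ± 0.47, against 6.82 ± 0.47 in G+. Dll3 was higher and Hes5 lower in G+, while Dll1, Hes1 and Hey1 were higher by a little over 2-fold, short of the threshold. With 2 of 10 genes called, where 1.8% of all genes were, the Dll3 difference was 1.77 ± 0.36 (3.4-fold, adjusted p = 0.00158) and the Hes5 difference was -1.55 ± 0.26 (adjusted p = 0.000178). The 3 others gave 1.31 ± 0.30 for Dll1 (adjusted p = 0.00522), 1.2 ± 0.33 for Hes1 (adjusted p = 0.0244) and 1.19 ± 0.28 for Hey1 (adjusted p = 0.00703), and for all 5 genes the arrays of G+ and G- did not overlap. On both slides that held d3 G+ and d3 G- arrays these 5 differences had the same sign, which the lack of overlap already fixed. Dll3 lost its call without d3 G+ replicate 2 or 3 (1.63 and 1.66), and Hes1 gained one without d3 G- replicate 1 (1.63). Of the 3 G+ arrays 1 measured Hes5 above background, and its difference fell short of the fold when d3 G+ replicate 1 or 2 or d3 G- replicate 2 or 3 was left out (-1.45 to -1.42). Its call was also lost with the slide as a fixed block (-1.48), 75th percentile scaling (-1.4), no background correction (-1.17), an offset of 50 (-0.97) and a fit of only these groups.

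At d4 the targets Hey1 and Hes5 differed most, but 0 of the 10 genes were called by limma, where 2.28% of all genes were, and 6 had an unadjusted p under 0.05. Hey1 was higher in G+ by 1.23 ± 0.28 (adjusted p = 0.00504), with 10.81, 10.69 and 9.85 against 9.36, 9.58 and 8.74. Hes5 differed by -1.41 ± 0.26 (adjusted p = 0.000657), with 6.73, 6.52 and 6.74 in G-. Neither pair of groups overlapped, and without d4 G+ replicate 3 both were called, at 1.53 and -1.62. With the slide as a fixed block Hes5 was called, at -1.53. Dll3 gave 0.90 ± 0.36 (adjusted p = 0.199). Whether G+ differed from G- by another amount at d4 than at d3 was tested as an interaction. There limma called 0 of the 10 genes, like 0 of all 20957 genes, with 0 of the 10 at an unadjusted p under 0.05. The largest such change was that of Dll3, -0.87 ± 0.51.

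**Figure D3:**
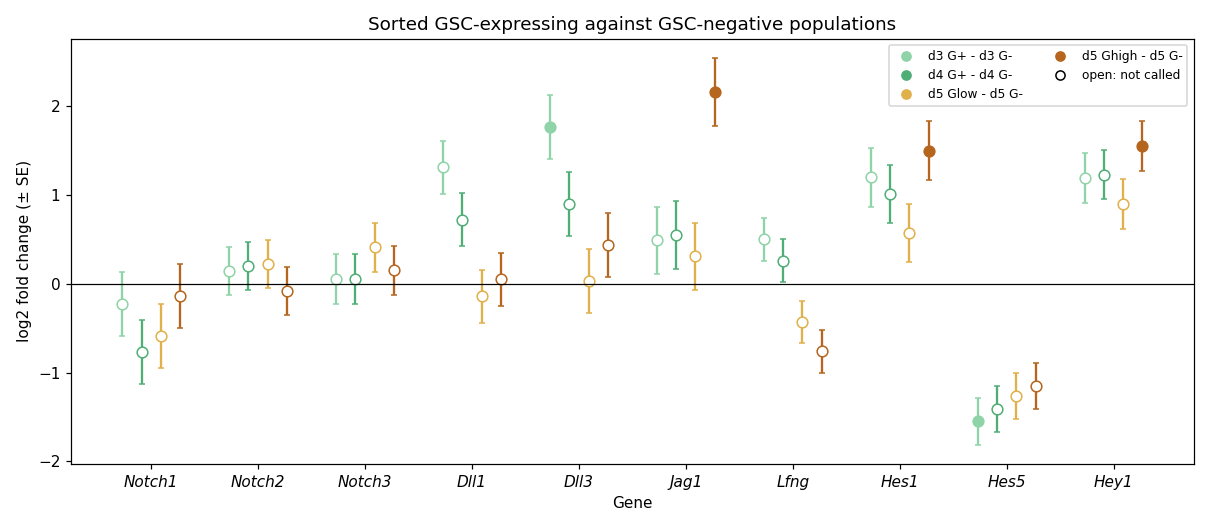
Log2 fold change (y axis, ± SE) of each Notch gene (x axis) between GSC-expressing and GSC-negative populations at d3, d4 and d5, with filled points for called genes and open points for the rest. Hes5 lies below 0 and Hes1 and Hey1 above 0 in all 4 comparisons, Dll3 stands highest at d3 and Jag1 at d5 Ghigh.

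At d5 the sort split cells by the amount of GSC. In Ghigh against G- 3 of 10 genes were called, where 2.58% of all genes were and 0.978% as higher, and all 3 were higher, namely Jag1 by 2.16 ± 0.38 (4.46-fold, adjusted p = 0.000227), Hey1 by 1.55 ± 0.28 (2.94-fold, adjusted p = 0.000329) and Hes1 by 1.5 ± 0.33 (2.83-fold, adjusted p = 0.00298). The G- arrays of Jag1 were at 7.89, 8.57 and 8.92 and did not reach the lowest Ghigh array. Hes1 and Hey1 were also without overlap, with 9.10, 8.60 and 8.36 for Hes1 and 10.53, 10.05 and 9.18 for Hey1 in G-. Both lie at the fold threshold, and with the slide as a fixed block they were not called, at 1.26 for Hes1 and 1.32 for Hey1. Without d5 Ghigh replicate 1 they were not called at 1.42 each, nor without d5 G- replicate 3 at 1.34 and 1.19, and Hes1 lost its call without d5 G- replicate 2 or d5 Ghigh replicate 2 as well (1.46 and 1.54). Hes5 differed from G- by -1.15 ± 0.26 in Ghigh (adjusted p = 0.00545) and by -1.26 ± 0.26 in Glow (adjusted p = 0.00625), and without d5 Glow replicate 3 the latter was called, at -1.54.

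In d5 Glow against G- 0 genes were called by limma (0.759% of all genes), with 2 at an unadjusted p under 0.05. In Ghigh against Glow 0 were called (0.267% of all genes), with 3 at an unadjusted p under 0.05. The closest was Jag1, higher in Ghigh by 1.84 ± 0.38 (adjusted p = 0.0122), where the third Glow array overlapped the Ghigh range. It was called without d5 Glow replicate 3 or without d5 Ghigh replicate 1, at 2.48 and 2.21, and with the slide as a random block, at 1.92. Between d6 G+H+ and G+H- limma called 0 of 10 genes, like 0 of all 20957 genes, with 0 of the 10 at an unadjusted p under 0.05. The differences there ranged from -0.65 ± 0.38 for Jag1 to 0.45 ± 0.30 for Dll1.

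Under inhibition of EZH2, a methyltransferase of the Polycomb system, Dll1 was the only gene of the 10 to be called. Dll1 was at 5.97, 6.38 and 5.88 in Control, at 8.04, 7.98 and 7.95 in ADE_EPZ and at 6.70, 6.92 and 7.34 in ES_EPZ. The 3 regimens did not overlap, with ES_EPZ between the others. In ADE_EPZ Dll1 rose by 1.91 ± 0.30 (3.77-fold, adjusted p = 4.07e-05), the 1 call among 10 genes where 2.78% of all genes were called. In ES_EPZ it was higher by 0.91 ± 0.30 (1.88-fold, adjusted p = 0.12), where 0 of 10 genes and 0.429% of all genes were called by limma, with 2 of the 10 at an unadjusted p under 0.05. ADE_EPZ stood above ES_EPZ by 1.01 ± 0.30 (adjusted p = 0.131), where limma called 0 of 10 genes and 0.129% of all genes, with 1 of the 10 at an unadjusted p under 0.05. Each of the 3 slides held 1 array of each regimen, and on all 3 the Dll1 order was Control, ES_EPZ, ADE_EPZ, as the lack of overlap requires. Within slides ADE_EPZ was above Control by between 1.57 and 2.16. The rise did not reach the fold for a call where the offset of the background correction was 50 in place of 10 (1.43).

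Notch3 lay lower under the inhibitor, with 14.25, 14.11 and 14.19 in Control and 12.93, 13.20 and 13.43 in ADE_EPZ, a difference of -1.0 ± 0.28 (adjusted p = 0.0184, not called). The groups did not overlap, and ES_EPZ, at 13.43, 13.77 and 13.68, lay between and gave -0.55 ± 0.28 (adjusted p = 0.432). Hey1 differed from Control by -0.78 ± 0.28 in ES_EPZ (adjusted p = 0.163) and by -0.47 ± 0.28 in ADE_EPZ (adjusted p = 0.39). Hes1 did not separate the regimens, with Control at 9.60, 9.83 and 10.10 and ADE_EPZ from 9.0 to 10.39, a difference of -0.10 ± 0.33. Lfng and, in Control, Hes5 were not well above background. ADE_EPZ and ES_EPZ were compared with the same 3 Control arrays.

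Cell type markers moved with these differences, and their part in them was not tested. In ADE_EPZ against Control 1 of 4 definitive endoderm markers was called, Hhex by 2.23 ± 0.40, and Cer1 (2.42 ± 0.86), Sox17 (0.82 ± 0.43) and Foxa2 (0.75 ± 0.63) lay above Control with no overlap but did not pass. Of the pluripotency markers 1 of 4, Zfp42, was called as higher, and 1 of 4 primitive streak markers, Mixl1, and 1 of 4 paraxial mesoderm markers, Meox1, as lower. In ES_EPZ against Control Mixl1 was the only marker called, as lower. In d3 G+ against G- 3 of 4 streak markers (Eomes, Gsc and Mixl1) and Tbx6 of the paraxial mesoderm list were called as higher, and 2 of 4 pluripotency markers and Tcf15 as lower. Gsc is the gene of the sort, so its difference was set by the sort, and it also enters the streak sums. The summed intensity of the 4 definitive endoderm markers, as log2, ran from 14.02 to 14.57 in Control and from 15.57 to 16.04 in ADE_EPZ, that of the pluripotency markers from 9.14 to 9.65 and from 10.38 to 10.91, that of the streak markers from 14.07 to 14.38 and from 13.61 to 13.94, and that of the paraxial mesoderm markers from 9.76 to 10.41 and from 8.75 to 9.48. In d3 G- and G+ the streak sum ran from 13.21 to 13.86 and from 14.74 to 15.09, the pluripotency sum from 14.09 to 14.42 and from 12.31 to 13.23, and the paraxial mesoderm sum from 10.86 to 11.51 and from 10.51 to 11.2. In d5 Ghigh against G- 3 of 4 definitive endoderm markers were higher and 4 of 4 pluripotency markers lower, with endoderm sums from 13.96 to 15.9 against 10.31 to 13.15 and pluripotency sums from 9.65 to 11.01 against 12.2 to 13.87. The streak markers went both ways there, with Gsc and Mixl1 called as higher and T as lower, and Tcf15 of the paraxial mesoderm list was called as lower. From d5 Ghigh to d6 G+H- Hhex was called as higher and Mixl1, T and Meox1 as lower, with endoderm sums from 15.67 to 16.3, streak sums from 14.23 to 14.5 and paraxial mesoderm sums from 8.51 to 8.87 in d6 G+H-, against 14.58 to 14.89 for the streak and 8.84 to 9.48 for the paraxial mesoderm in d5 Ghigh. In ESCs the pluripotency sum ran from 15.33 to 16.12, the streak sum from 8.34 to 8.74 and the endoderm sum from 7.95 to 8.63, with Gsc, Mixl1, Cer1 and Sox17 above background in no array. The paraxial mesoderm sum was highest in ESCs, from 12.68 to 13.52, and Tcf15 of that list was called as lower than ESCs in every population from d3 on. A lower paraxial mesoderm sum is therefore not a measure of mesoderm alone.

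Limma called 0 of 4 endothelial and 0 of 4 neural markers in d3 G+ against G- (1.8% of all genes), d5 Ghigh against G- (2.58%) and ADE_EPZ (2.78%) and ES_EPZ (0.429%) against Control. At most 2 of either list had an unadjusted p under 0.05. The endothelial marker Cdh5 was higher at a limma adjusted p of 0.05 or less, though not called, in d5 Ghigh against G- and in ADE_EPZ against Control. Its mean was 5.0 in Control, with no array above background, and 5.92 in ADE_EPZ, with all 3 above. Olig3 was above background in no array of d3 G+, d5 G-, d5 Ghigh or any EPZ6438 regimen. Neurog2 and Tek were above it in no array of any EPZ6438 regimen, Neurog2 also in none of d5 Ghigh and Tek in none of d3 G+. Pax6 was above it in no array of d3 G+, d5 Ghigh, ADE_EPZ or ES_EPZ. A marker below background in both groups could hardly be called, so these counts do not show that such cells were unchanged.

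**Figure D4:**
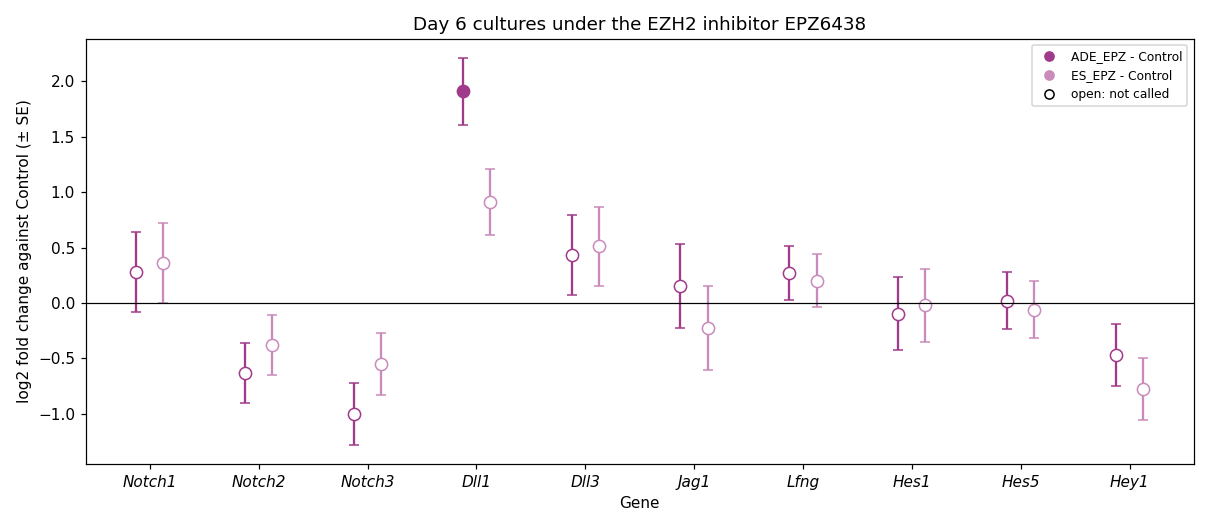
Log2 fold change (y axis, ± SE) of each Notch gene (x axis) in d6 cultures of the ADE_EPZ and ES_EPZ regimens against Control, with filled points for called genes and open points for the rest. Dll1 rises by 1.91 in ADE_EPZ and is the only call, with Notch3 at -1.0 as the largest difference the other way.

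The rest of the pathway was examined through 34 further genes, of which 33 had a probe. Against ESCs 5 were called in d3 G+, 8 in d4 G+, 7 in each of d5 Glow and d5 Ghigh and 6 in each d6 population, with the shares of all genes given above, while d3 G- and d4 G- had 1 each, d2 had 2 and d5 G- had 3. Maml3, a Mastermind coactivator, was called in every population from d3 on, rising from 5.86 ± 0.41 (SD, n = 3) in ESCs to 8.48 ± 0.50 in d3 G- and reaching 10.70 ± 0.17 in d6 G+H+, an increase of 4.84 ± 0.29 (SE, adjusted p = 3.96e-15). Nrarp, a Notch target that dampens the signal, rose from 5.55 ± 0.41 (SD) in ESCs to 7.89 ± 0.23 in d3 G+ and 8.53 ± 0.28 in d4 G+, an increase of 2.98 ± 0.27 (SE) at d4, and was at 6.63 ± 0.33 (SD) in d6 G+H+. Adam10, the protease that makes the first cut in the bound receptor, was called in both d6 populations, by 1.72 ± 0.31 (SE) in G+H- and 2.01 ± 0.31 in G+H+.

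Other pathway genes fell. Against ESCs Dtx1, a ubiquitin ligase that binds the receptor, differed by -2.45 ± 0.47 in d3 G+ and by -3.34 ± 0.47 in d4 G+. Mfng, a Fringe enzyme like Lfng, differed by -2.08 ± 0.37 and -2.69 ± 0.37. Hes3, which is expressed in early neural tissue, had gone up by 2.41 ± 0.30 at d2 (adjusted p = 1.04e-06) and was then above background in no array of d3 G+, d4 G+, d5 Glow, d5 Ghigh or d6, at least 3.28-fold lower in d4 G+ than in ESCs. Notch4 and Jag2 were called as lower in d4 G+, d5 Glow and d5 Ghigh, between -1.51 and -1.95. Dtx1 and Mfng were also called as lower in d5 Glow and d5 Ghigh, and Dtx1 and Notch4 in both d6 populations. Outside the GSC-expressing and d6 populations Notch4 was called at d2 (-1.59 ± 0.25) and Mfng in d5 G- (-1.51 ± 0.37).

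Between d3 G+ and G- 4 of the 33 genes were called, where 1.8% of all genes were, and the same 4 were called at d4, where 2.28% were. Nrarp was higher by 1.53 ± 0.27 at d3 and 1.61 ± 0.27 at d4. Dtx1 fell by 2.01 ± 0.47 and 2.55 ± 0.47 and Mfng fell by 1.51 ± 0.37 and 1.6 ± 0.37, and Hes3 was at least 4.22-fold and at least 2.91-fold lower. Limma called 0 of the 33 between populations of d5 or of d6, with 7 at an unadjusted p under 0.05 in Glow against G- (0.759% of all genes called), 11 in Ghigh against G- (2.58%), 4 in Ghigh against Glow (0.267%) and 2 in G+H+ against G+H- (0.0%). In ADE_EPZ against Control 2 of the 33 were called (2.78% of all genes), Mfng higher by 2.04 ± 0.37 (adjusted p = 0.000226) and Nrarp with a change of -1.53 ± 0.27 (adjusted p = 0.000187). In ES_EPZ limma called 0 (0.429% of all genes), with 6 at an unadjusted p under 0.05, among them Nrarp at -1.22 ± 0.27 (adjusted p = 0.0134).

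**Figure D5:**
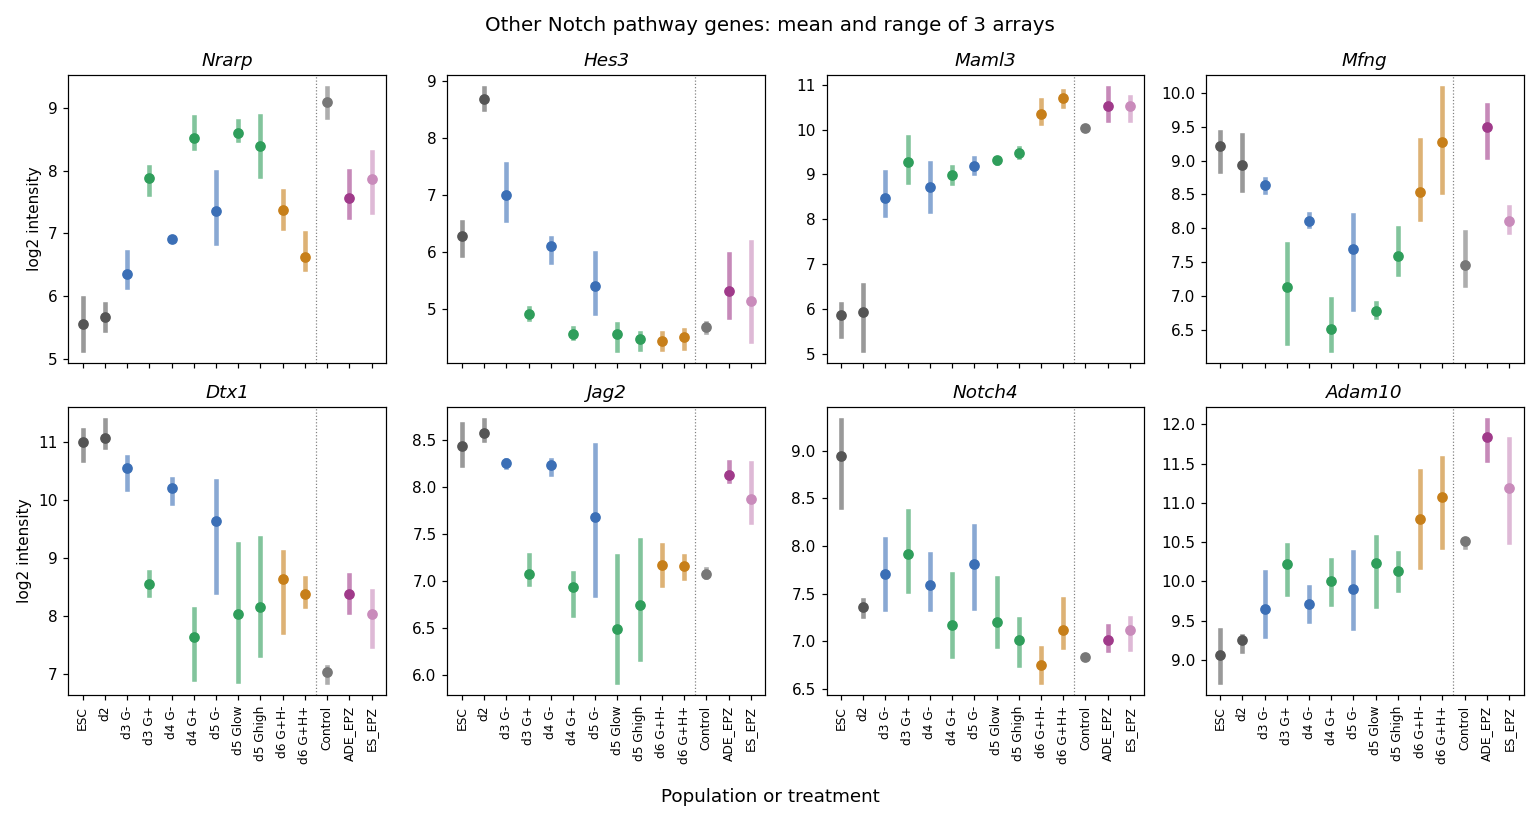
Log2 intensity (y axis) of 8 further pathway genes by population or treatment (x axis), with the mean as a point and the range of 3 arrays as a bar, and a dotted line between the untreated and the EPZ6438 series. Nrarp is higher and Hes3, Mfng and Dtx1 are lower in G+ than in G- at d3 and d4, Maml3 climbs from d3, and Mfng is higher and Nrarp lower in ADE_EPZ than in Control.

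How the 10 genes resembled each other was described by Pearson's r between their 14 group means, which share slides and normalisation and span both series, so that any difference between the series enters them. Hes1 and Hey1 ran closest together (0.93), and Hes5 ran against both (-0.90 with Hes1, -0.82 with Hey1). Notch3 ran with Hey1 (0.82) and against Lfng (-0.87). Over the 11 untreated groups these were 0.93, -0.88, -0.80, 0.84 and -0.85. Pairs with Notch1 moved more, from -0.68 to -0.26 with Notch3 and from 0.42 to -0.02 with Lfng. Dll1 resembled none of the others, with its highest r, 0.48, against Jag1.

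Among 15508 genes above background, the 3 most like each Notch gene were also found. For Dll3 they were A930001A20Rik (0.96), Cycs (0.96) and Hnrnpa0 (0.95), for Dll1 Atg5, 4931428F04Rik and 4933417G07Rik (0.87 to 0.88), and for Jag1 Mdm1 (0.91), Tac1 (0.89) and Tbc1d14 (0.88). For Hes1 they were Gem, Smap1 and Relt (0.98 each), for Hey1 Rai1, Man1b1 and Greb1 (0.98 each), and for Hes5 Tmem54 (0.97), Ugt8a (0.97) and Bpifb4 (0.96). For Lfng they were Marchf11 (0.97), Cdx1 (0.96) and Smpd3 (0.95). For the receptors they were Trpm1, Pnma2 and Cmya5 for Notch1 (0.99 each), Flt3l (0.97), Cdc37 (0.97) and Eola1 (0.96) for Notch2, and Rsph3a (0.98), Prrg1 (0.97) and C1qtnf12 (0.97) for Notch3. Over the 11 untreated groups the r of these genes lay between 0.86 and 0.99. With 14 points and this many genes, such values are a description only.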

How the data were processed

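RNA of 14 groups was hybridised to 42 Agilent one-colour mouse arrays, 33 in the untreated and 9 in the EPZ6438 series. The authors deposited a table of log2 intensity, which they made in limma by averaging duplicate probes, correcting the background (normexp, offset 10) and quantile normalising all arrays together, and for each array a scanner file with median foreground and background intensity and marks per spot. The table was used for all reported values, and the scanner files gave the marks for probes well above background and the recomputed alternatives. On each array the table and a recomputation from the scanner intensity correlated at 0.999979 or better. Offsets of this kind shrink the change of dim probes. Spots of a probe were averaged, which gave 55681 probes on each array, and between 24504 and 40428 of them were well above background. None were saturated, and the number of arrays, 3 per group, limits the precision.

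Groups came from the deposited labels. The scanner files name software version 11.0.1.1 for the untreated and 12.0.1.1 for the EPZ6438 series. Genes were named through RefSeq's gene table for GRCm38.p6, and sequences from RefSeq promoter windows of the same assembly. One mean per group was fitted with limma 3.58.1 in R 4.3.3 (statmod 1.5.0) to all arrays, with moderated standard errors, and Benjamini-Hochberg adjustment covered every probe of each of 20 comparisons and of the d3 to d4 interaction. Permutation of 3 arrays against 3 cannot give a p under 0.1. The fits were tested on simulated data.

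The 10 genes were all named. Other pathway genes were counted and named only where called, and the 3 genes most like each were taken by Pearson's r of group means among genes above background in a group. The genes, the lists and the tests were chosen with earlier results of these data known. Alternatives were recomputation from the scanner files, 75th percentile scaling, an offset of 50, leaving the background uncorrected, quantile normalisation within each series, only probes above background in a group, a fit on only the groups being compared, a block for the slide (fixed or random) or the replicate number, a gene's other probe, an adjusted p of 0.05 with no fold, and leaving out each array in turn.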

Additional observations from a re-analysis of the deposited data

How the results depend on the processing

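No call of a Notch gene changed direction under any alternative. Against ESCs 6 genes were called at least once, and this count was 6 to 9 under the alternatives and 6 to 7 with an array left out. Between sorted populations 6 genes were called, with 1 (Dll3) where only the compared groups were fitted, 3 with a normexp offset of 50, and 3 to 6 with an array left out, the lowest without d5 Ghigh replicate 1. Under EPZ6438 1 gene was called, with 0 at an offset of 50, 2 at an adjusted p of 0.05 with no fold, and 1 whichever array was left out. The d3 to d4 interaction gave 0 throughout. Of the 34 calls, 24 were kept with only the compared groups, where Dll3 in d5 G- and Glow, Notch3 in d5 Glow and Ghigh and Jag1 in d5 Ghigh against ESCs, Hes5 in d3 G+ against G-, Jag1, Hes1 and Hey1 in d5 Ghigh against G- and Dll1 in d6 G+H- against d5 Ghigh were lost, 30 at an offset of 50, 31 with slide as a fixed and 32 as a random block, 32 with no background correction, 33 with 75th percentile scaling, and all 34 with recomputed values, normalisation within each series or only probes above background, and 23 were kept under every alternative other than leaving out an array. Leaving out an array cost 11 calls at least once. With the replicate number as a block the counts were 6, 6, 1 and 0 and all 34 calls were kept, and Jag1 in d5 Ghigh against Glow was called as well (1.84). Same-numbered arrays deviated together on the whole, with a median correlation of 0.207 against -0.141 for other numbers in the untreated and 0.199 against -0.084 in the EPZ6438 series. This held above 0.1 in 116 of 165 and 6 of 9 same-numbered pairs, not in all, and the labels name no shared batch, so the block was kept as an alternative. In the untreated series, however, the arrays of replicate 3 lay on 2 slides and those of replicates 1 and 2 on 3 other slides. Replicate 3 and its set of slides therefore cannot be told apart. Scaling by the 75th percentile moved the median of all probes by between -0.164 and 0.192. Dim genes such as Hes5 and Lfng have only bounds in groups not well above background, and the cause of the lost calls was not tested.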
